A study of Rattus norvegicus with 42 samples.

Results

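The soleus of rats after 3 days of hindlimb unloading (D3; animals U9, U10 and U11) was compared with the soleus of control rats (animals U6, U7 and U8). These are 6 of the 42 CAGE libraries of the series. The libraries of each group were picked out by their labels, but the groups were chosen with earlier results of these data known. All TSS peaks outside the mitochondrial chromosome were considered, 9969 of 9971. The rats were mature Wistar animals. D3 rats hung by their tails in individual cages, so that the hindlimbs bore no load, and control rats moved freely. The labels name no allele and no agent for either group, all rats were killed under ether anesthesia, and each library is 1 muscle of 1 rat. Other groups used beside them were soleus after 1 day (D1; U24, U25 and U26) and 7 days of unloading (D7; U1, U2 and U3), and the EDL muscle of the same D3 and control rats.

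The soleus is a postural muscle of the hindlimb that is active in standing and is built mainly of slow fibers. The EDL (extensor digitorum longus) is a fast muscle. Slow and fast fibers differ in the myosin heavy chain they make: Myh7 is the slow form, and Myh2, Myh1 and Myh4 encode the IIa, IIx and IIb fast forms. Removal of load leads to wasting of the soleus and, with time, to a shift of its fibers from slow to fast. CAGE (cap analysis gene expression) captures RNAs by their 5′ cap and sequences from that end, which places each tag at a transcription start. A CTSS is 1 such start position and a TSS peak is a cluster of them. Levels are in TPM, the tags of a peak per 1000000 tags of the library. Soleus muscle also holds vessels, connective tissue, nerve endings and immune cells, and in such bulk samples a change in the number of cells of a type and a change in RNA per cell cannot be told apart.

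The deposited files give peaks by position on Rnor_6.0 and pair none with a gene, so peaks are given by position. The exceptions are Myh4 and Rtkn, whose approximate windows the study shows. The Myh4 promoter is shown because D3 animals U9 and U10 differed widely in its region. The sequence is from RefSeq, chr10:52421898-52422197 on the plus strand of GRCr8, a later build than that of the peaks, and runs over 300 bases around the annotated start. Capitals mark TATAAA, the core of the TATA box, on either strand.

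Myh4: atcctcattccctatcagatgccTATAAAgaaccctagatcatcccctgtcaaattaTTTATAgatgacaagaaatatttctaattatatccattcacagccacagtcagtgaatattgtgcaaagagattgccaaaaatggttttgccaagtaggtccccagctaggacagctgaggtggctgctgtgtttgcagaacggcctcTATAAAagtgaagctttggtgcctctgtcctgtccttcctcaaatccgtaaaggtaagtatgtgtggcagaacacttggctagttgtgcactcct

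The letters TATAAA were found 3 times in this window, from bases 24 and 206 on the plus strand and from base 58 on the minus strand. They occurred on either strand in 14.2% of 33469 RefSeq promoter windows of the same length. A match is a description of the sequence only.

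The 3 control libraries held 16652474, 11577496 and 7799116 tags (U6, U7, U8) and the D3 libraries 18080811, 16653218 and 4718621 (U9, U10, U11). TSS peaks took 91.3% to 94.5% of the tags in 4 of these libraries, but 72.4% in control U7 and 77.1% in D3 U11. All control libraries were sequenced in lane 1, D3 U9 and U10 in lane 2 and D3 U11 in lane 3, so group and lane cannot be told apart among these 6 libraries. D1 soleus was in lane 1 (U24) and lane 2 (U25 and U26), and all D7 soleus in lane 3. Control EDL was in lane 1, and D3 EDL in lanes 2 (U9), 6 (U10) and 3 (U11). Group and lane thus cannot be told apart for D7 soleus or D3 EDL against control either. The soleus label was checked on the Myh4 window, a fast fiber gene: its summed peaks lay between 2.77 and 40.2 TPM in these 6 soleus libraries and between 1256 and 2624 TPM in the EDL of the same rats.

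Which promoters changed their output after 3 days without load was asked first. Of 9840 peaks tested, 72 (0.732%) were called, 41 higher (0.417%) and 31 lower (0.315%) at D3 than in control, with both an edgeR quasi-likelihood adjusted p under 0.05 and a change of more than 2.38-fold required. An unadjusted p under 0.05 was seen in 1413 peaks. The rises had a median log2 fold change of 1.59 (1.26 to 3.82) and the falls of -1.78 (sizes 1.32 to 3.23), while the median over all tested peaks was 0.0015. Rising peaks went from a median level of 7.10 TPM in control to 24.1 TPM at D3. Falling peaks went from a median of 27.5 TPM to 7.01 TPM. Over all tested peaks the median control level was 9.46 TPM. The control level is part of the value on which peaks were called. All 31 falls and 40 of 41 rises had D3 and control libraries that did not overlap in TPM, which was true of 14.9% of all tested peaks. The number of calls rested on the libraries: it was 7 without control U8, 10 without control U6, 18 without D3 U9 and 39 without D3 U10. With the sequencing lane as a block in a fit over all 42 libraries it was 0 (702 peaks at an unadjusted p under 0.05), and 96 in the same fit without the block.

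**Figure D1:**
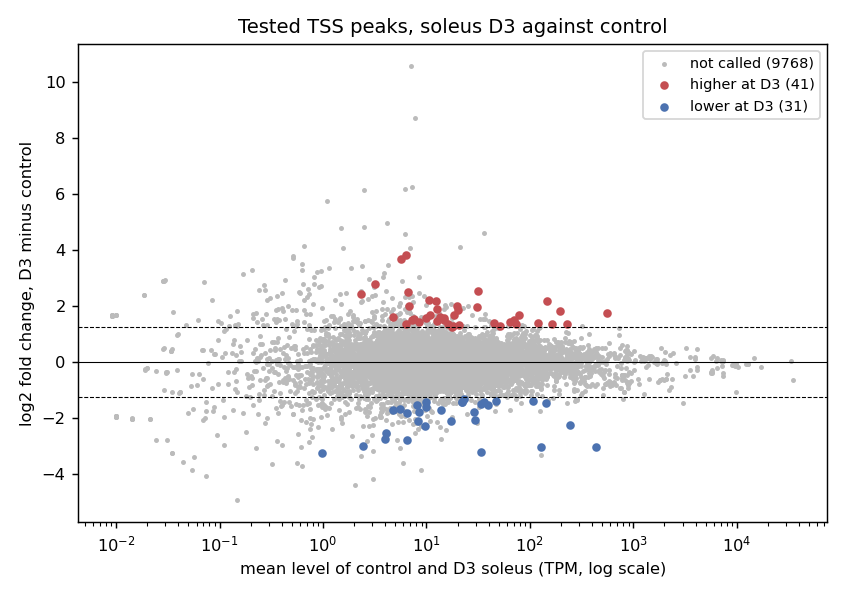
Log2 fold change of each tested TSS peak (D3 minus control, soleus) against its mean level in TPM on a log axis. Grey points were not called, red points are the 41 peaks called higher, blue points the 31 called lower, and dashed lines mark the 2.38-fold limits of a call.

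In control, the most strongly used of the called peaks was chr1:261281619-261281935 on the plus strand, and it fell. It was at 798, 608 and 917 TPM in control U6, U7 and U8 and at 122, 95.5 and 97.5 TPM in D3 U9, U10 and U11. Every D3 library was far below every control library. The mean fell from 774 ± 156 to 105 ± 14.8 TPM (SD, n = 3 each), with a log2 fold change of -3.02 (SE 0.60, edgeR adjusted p = 0.024). Peak chrX:106774783-106775086 on the plus strand was second in level among the falls, at 413, 312 and 476 TPM in control and 103, 68.3 and 105 TPM at D3. Its log2 fold change was -2.23 (SE 0.41, edgeR adjusted p = 0.014). The 12 largest falls and the 12 largest rises were chosen among calls whose groups did not overlap. That D3 and control libraries lie apart in them thus follows from the choice. Leaving out single libraries moved the first between -3.11 and -2.92 and the second between -2.50 and -2.01, and each stayed called in 2 of 6 such fits.

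Peak chr3:105512810-105513096 on the minus strand was at 280, 74.5 and 330 TPM in control and at 35.3, 36.7 and 18 TPM at D3. Control U7 stood much lower than the other controls, yet above all D3 libraries. The log2 fold change was -3.03 (SE 0.58, edgeR adjusted p = 0.018), and the call was kept in 1 of 6 fits without single libraries. The largest fall among the peaks of at least 10 TPM was chr15:4069082-4069615 on the plus strand, at 47.3, 31.7 and 102 TPM in control and at 15.9, 1.20 and 4.24 TPM at D3, a log2 fold change of -3.20 (SE 0.67, edgeR adjusted p = 0.029). The D3 animals were uneven here, and without U9 the log2 fold change was -4.56.

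The remaining 8 of the 12 largest falls had control means of 11.2 to 46.3 TPM and log2 fold changes of -2.79 to -1.72. Peak chr7:66621151-66621210 on the plus strand was at 12.3, 7.26 and 14 TPM in control and nearly even at 1.88, 1.56 and 1.91 TPM at D3. Peak chr2:151314653-151314982 on the plus strand stayed called in 5 of 6 fits without single libraries, the most of any named fall, and was at 12.8, 7.60 and 19.2 TPM in control and 4.76, 2.04 and 3.18 TPM at D3. No fall was called in all 6 of these fits.

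**Figure D2:**
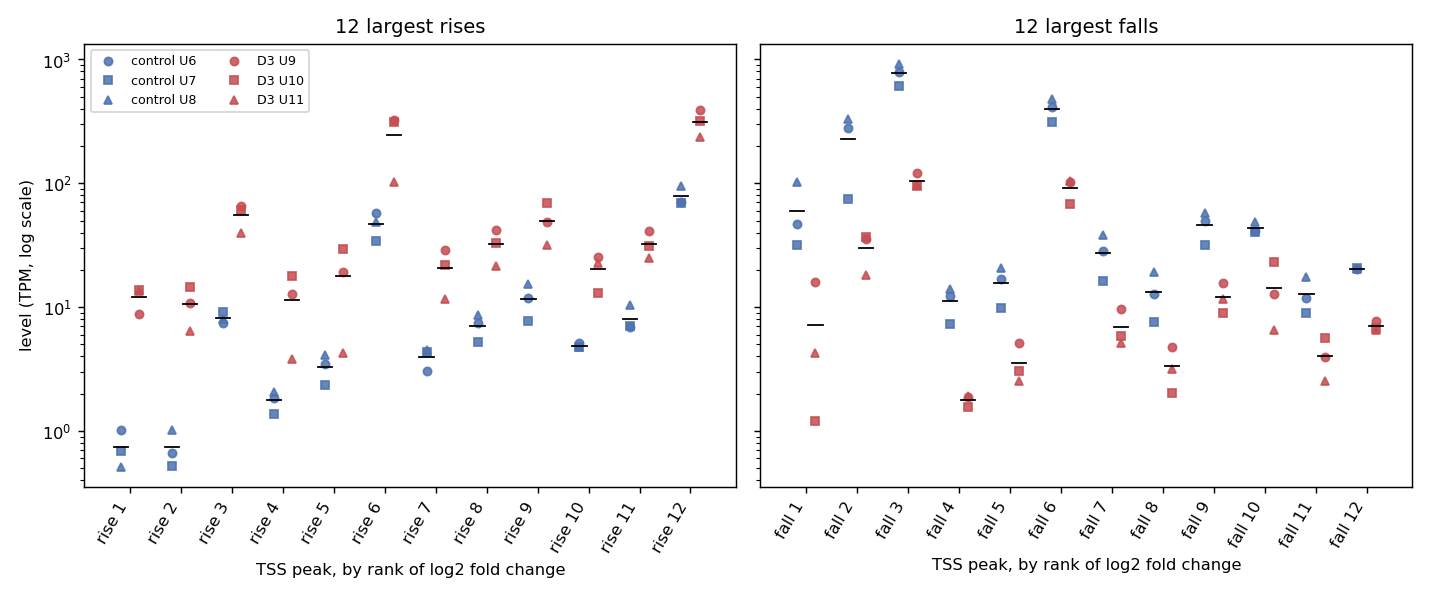
Level in TPM (log axis) of the 12 peaks with the largest rise and the 12 with the largest fall, numbered by log2 fold change, in each control (blue) and D3 (red) soleus library. Black lines are means of 3 animals. The peaks were chosen among calls whose groups did not overlap, so the gap between red and blue points follows from that choice.

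Among the rises, chr4:49267770-49267952 on the minus strand had the largest log2 fold change. It was nearly silent in control, at 1.02, 0.691 and 0.513 TPM, and was at 8.79, 13.8 and 13.6 TPM at D3. Its log2 fold change was 3.82 (SE 0.51, edgeR adjusted p = 0.0021), and the call held in 6 of 6 fits without single libraries. The next was chr12:38974817-38974950 on the minus strand, whose call was kept in 1 of 6 such fits, at 0.661, 0.518 and 1.03 TPM in control and 10.8, 14.5 and 6.36 TPM at D3 (log2 fold change 3.69, SE 0.78, edgeR adjusted p = 0.029). Its control tags were few, 11, 6 and 8 in the 3 libraries.

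A stretch of chromosome 10 held 3 called rises on the plus strand. Peak chr10:48927479-48927624 was even in control, at 7.51, 9.16 and 7.95 TPM, and at 66.0, 60.3 and 39.6 TPM at D3, a log2 fold change of 2.54 (SE 0.31, edgeR adjusted p = 0.0013). Peak chr10:48880136-48880293 was the most strongly used peak at D3 among all calls, at 240, 185 and 247 TPM in control and 1148, 1219 and 267 TPM at D3. Here U9 and U10 were high while U11 lay just above the highest control. The log2 fold change was 1.74 (SE 0.41, edgeR adjusted p = 0.047), and the call was kept in 1 of 6 fits without single libraries. Beside it, chr10:48881256-48881844 was at 7.45, 7.77 and 5.26 TPM in control and 27.6, 28.4 and 11.9 TPM at D3. Its log2 fold change was 1.49 (SE 0.34), and its edgeR adjusted p of 0.045 was close to the limit of a call.

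Further strongly used rises were chr20:13653852-13654101 on the minus strand, chr1:167197491-167197599 on the plus strand and chr2:242882222-242882418 on the plus strand. The first was at 70.7, 69.0 and 95.0 TPM in control and 388, 320 and 238 TPM at D3 (log2 fold change 1.84, SE 0.35, edgeR adjusted p = 0.018). The second was at 119, 73.9 and 166 TPM in control and 448, 351 and 214 TPM at D3 (log2 fold change 1.36, SE 0.22, edgeR adjusted p = 0.0089). In the third, control libraries were at 57.9, 34.3 and 48.7 TPM and D3 libraries at 327, 313 and 102 TPM (log2 fold change 2.19, SE 0.45, edgeR adjusted p = 0.028). In all 3, U11 was the lowest D3 library. Without single libraries, the calls of the first and second were kept in 3 of 6 fits each and that of the third in 1 of 6.

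U11 was the lowest D3 library in TPM in 33 of 41 rises and also in 22 of 31 falls. On the normalised library sizes of the fit it was the lowest in 27 of 41 rises and 13 of 31 falls. These counts were not made over all tested peaks, so whether they are particular to called peaks was not tested. U11 was also the shallowest library of the 6, had the lowest share of tags in peaks among D3 libraries and was the only one of the 6 in lane 3. The part of these traits in the result was not tested. Besides chr4:49267770-49267952 and chr10:48927479-48927624, the calls of 3 named rises held in 6 of 6 fits without single libraries. Peak chr20:4873916-4874041 on the minus strand was at 3.06, 4.32 and 4.49 TPM in control and 28.7, 21.7 and 11.7 TPM at D3. Peak chr15:24374578-24374826 on the minus strand went from 7.45, 5.27 and 8.59 TPM to 41.8, 32.9 and 21.6 TPM. Peak chr15:23377237-23377479 on the minus strand went from 6.85, 7.00 and 10.4 TPM to 41.1, 31.3 and 25 TPM. In total, 6 of 41 rises were called in all 6 of these fits.

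The 72 called peaks lay on 20 chromosomes and in 67 loci, a locus being peaks of 1 strand with gaps of at most 10 kb, and 59.7% were alone in their locus against 69.0% of all tested peaks. Called peaks of 5 loci came in pairs. On chromosome 7, chr7:12401438-12401939 and chr7:12404987-12405107 on the minus strand rose together, the first from 7.69, 5.36 and 7.82 to 27.3, 19.6 and 21.6 TPM and the second from 31.6, 27.3 and 35.4 to 124, 111 and 58.7 TPM. The largest peak of that locus, chr7:12429761-12430113, was at 350, 244 and 461 TPM in control and 322, 254 and 221 TPM at D3 and was not called (edgeR adjusted p = 0.30).

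In the locus of the chromosome 15 fall, the peaks chr15:4069082-4069615 and chr15:4073409-4073978 were called lower, the latter at 20.2, 20.7 and 20.4 TPM in control and 7.69, 6.79 and 6.57 TPM at D3. The first call was kept in 2 of 6 fits without single libraries and the second in 0 of 6. The 5 other peaks next to and between them had log2 fold changes of -2.39 to -1.14 and were not called (edgeR adjusted p = 0.059 to 0.18). Farther upstream, chr15:4064449-4064764 was at 91.1, 52.3 and 126 TPM in control and 94.3, 87.9 and 56.6 TPM at D3, with a log2 fold change of -0.30 (edgeR adjusted p = 0.64). Downstream, chr15:4076879-4077181 was at 29.4, 24.3 and 26.9 TPM in control and 22.1, 62.5 and 16.7 TPM at D3 (log2 fold change 0.14, edgeR adjusted p = 0.92).

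The start position within peaks was compared on pooled tags. Of 71 called peaks with at least 10 tags in each group, 54 (76.1%) had the same dominant CTSS in pooled D3 and pooled control tags, close to the 73.1% of 9535 tested peaks. When each of the 6 libraries was taken by itself, all had the same dominant CTSS in 35 of the 71 (49.3%). In the 17 peaks that differed on pooled tags, the dominant positions lay 1 to 146 nt apart (median 12 nt), and the largest distance rested on a position with 6 of 148 tags in control and one with 3 of 25 tags at D3. The rising peak chr10:14099658-14099883 on the plus strand had positions 97 nt apart. The control position held 21.2%, 27.3% and 8.11% of the tags in control U6, U7 and U8, against 1.18%, 9.09% and 2.70% at the D3 position, and was ahead in each. At D3 the order was the reverse in each of U9, U10 and U11, with 5%, 3.69% and 1.85% at the control position and 15%, 12.9% and 18.5% at the D3 position. The control libraries held only 85, 55 and 37 tags in this peak. In the rising peak chr1:167197491-167197599 the pooled positions were 1 nt apart. The control position led in U6 alone (48.4% against 34.5%), while the D3 position was already ahead in control U7 and U8. The CTSS that led at D3 held 34.5%, 42.8% and 33.2% of the tags of the peak in control U6, U7 and U8 and 56.2%, 62.9% and 54.2% in D3 U9, U10 and U11. The 95% Wilson intervals reached at most 46.1% in control and began at 51.1% at D3, and cover counting error only. The positions compared in each peak were those leading in the pooled tags of these same libraries, which favours such differences. In chr20:4873916-4874041 the positions were 2 nt apart, the D3 position was already ahead of the control one in control U8 (22.9% against 20%), and the share at the D3 position was 25.5%, 20% and 22.9% in control but 38.7%, 52.2% and 23.6% at D3, so that U11 lay among the controls.

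How the 72 peaks stood on other days of unloading was compared next. All D7 soleus libraries were in lane 3 and all controls in lane 1, so day and lane cannot be told apart there. The rises had median log2 fold changes against control of 1.24 at D1, 1.59 at D3 and 1.15 at D7, and the falls of -1.33, -1.78 and -1.30. The 3 values share the same control libraries and the peaks were chosen at D3, so the D3 value is the most extreme by choice. At D1 1.97% and at D7 0.122% of all tested peaks were called against control. Of the 41 rises, 17 were also called at D1, where 0.854% of all tested peaks were called higher, and 4 at D7, where 0.0711% were. Of the 31 falls, 13 were also called at D1 (1.12% of all tested peaks called lower) and 2 at D7 (0.0508%). Peak chr4:49267770-49267952 was at 14.7, 8.36 and 8.46 TPM at D1 and at 2.26, 2.69 and 3.29 TPM at D7, where every library was still above every control library; its D3 and D7 levels were not called different. Peak chr1:261281619-261281935 was at 320, 515 and 116 TPM at D1 and 284, 505 and 313 TPM at D7, so that every D7 library was above every D3 library; its D3 and D7 levels were not called different.

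**Figure D3:**
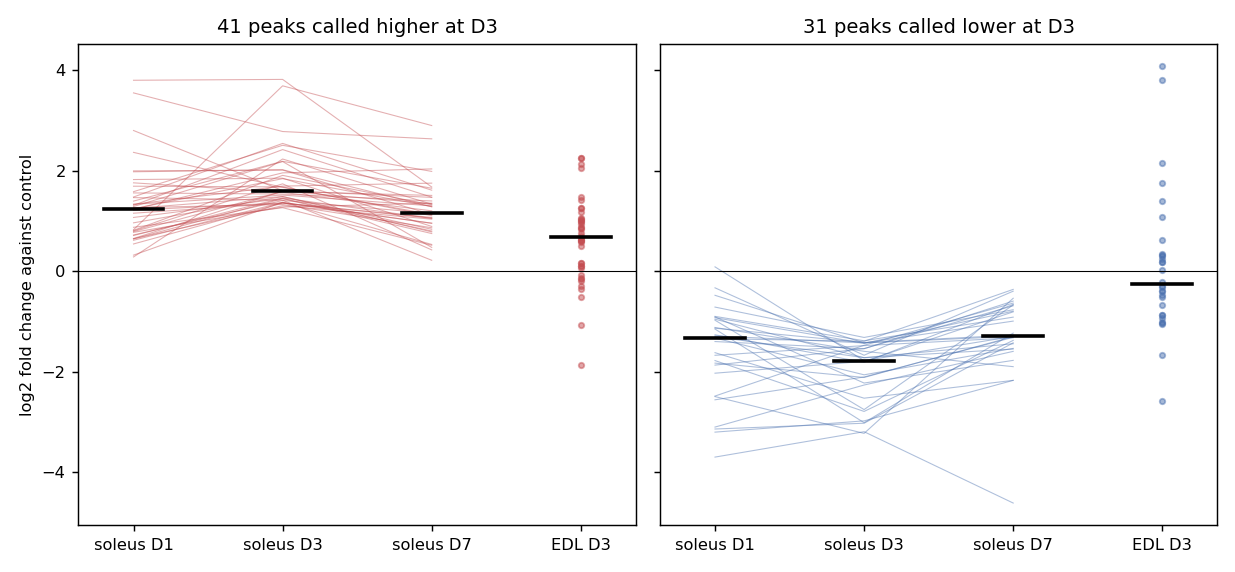
Log2 fold change against control of the 41 called rises (left) and 31 called falls (right) in soleus at D1, D3 and D7, joined by lines for each peak, and in EDL at D3 as points. Black bars are medians: for rises 1.24, 1.59, 1.15 and 0.67, and for falls -1.33, -1.78, -1.30 and -0.25; the soleus values share their control libraries and the peaks were selected at D3.

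Tested directly, D3 differed from D1 in 33 of 9840 peaks (0.335%), 13 higher (0.132%) and 20 lower (0.203%) at D3, with sizes of up to 4.71 on the log2 scale. The balance of directions was not stable: DESeq2 called 77 higher and 50 lower, and without D3 U11 there were 33 higher and 11 lower. Of the 33, 1 was also a call against control (0.732% of all tested peaks were), chrX:116809854-116810271 on the minus strand. It was at 11.9, 8.98 and 17.6 TPM in control, 10.7, 12.1 and 14.9 TPM at D1 and 3.93, 5.58 and 2.54 TPM at D3. The next peaks were chosen after their values were seen. Peak chr4:148782447-148782582 on the plus strand was at 4.26, 4.92 and 6.41 TPM in control, at 159, 137 and 75.7 TPM at D1 and at 15.3, 17.4 and 13.4 TPM at D3 (D3 minus D1 log2 fold change -3.25, SE 0.49, edgeR adjusted p = 0.0068). The reverse was seen in chr19:561541-561836 on the plus strand, at 27.3, 13 and 35.3 TPM in control, 2.94, 1.18 and 2.19 TPM at D1 and 56.9, 120 and 14.6 TPM at D3 (4.71, SE 0.58, edgeR adjusted p = 0.0015). Peak chr1:277977208-277977708 on the minus strand was at 78.8, 37.5 and 81.4 TPM in control, 3.98, 3.45 and 1.62 TPM at D1 and 117, 95.3 and 14 TPM at D3 (4.32, SE 0.76, edgeR adjusted p = 0.015). In these 3, D1 lay outside the range of the controls. The change from control at D3 was not called by edgeR, with log2 fold changes of 1.41, 1.18 and -0.01, although in the first every D3 library was above every control library. The number of calls was 2 without D3 U9 and 64 without D3 U10, and 1 among libraries of lane 2 alone. That last fit held only D3 U9 and U10 and D1 U25 and U26, so its spread rests on few libraries.

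Between D3 and D7, 0 of 9840 peaks were called by edgeR (773 at an unadjusted p under 0.05, lowest adjusted p = 0.062), while DESeq2 called 24.

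Whether EDL of the same rats changed in the same way at D3 was tested as a difference between the changes of both muscles. It was called in 109 of 9945 peaks (1.1%), and in 98 of these (0.985%) the change in soleus was the lower one. DESeq2 called 182. The number was 66 without soleus control U8, 71 without EDL control U8 and 72 without EDL D3 U10, and 83 with the lane as a block (76 of them lower in soleus). Among the 92 of these peaks tested in each muscle by itself, 91 had a negative estimate in soleus and a positive one in EDL (medians over the group -0.87 and 1.82). These signs follow largely from the choice of peaks by the difference itself and are given as a description. In 95 of the 98, control soleus was above control EDL. Both control levels enter the difference by which these peaks were chosen, and the share over all tested peaks was not counted, so this too is only a description. Of the 98, 49 were called higher in EDL (0.963% of all peaks tested there) and 9 lower in soleus (0.315% of all peaks tested). In the other 11 (0.111%) the estimate was positive in soleus and negative in EDL in every case, and 6 were called higher in soleus (0.417% of all peaks tested). The changes in both muscles enter the difference by which the 98 and the 11 were chosen. That choice favours these signs and calls, which are given only as a description. With the animal as a block, 139 peaks were called with the lower change in soleus and 19 with the higher.

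Peak chr1:261281619-261281935 belonged to the 98. While it fell in soleus, it was at 18.9, 8.24 and 5.72 TPM in the EDL of control U6, U7 and U8 and at 167, 152 and 371 TPM in that of D3 U9, U10 and U11. At D3 the EDL libraries were thus all above the soleus libraries, the reverse of control. The difference between the changes was -7.12 (SE 0.79, edgeR adjusted p = 2.0e-06). Peak chr15:4069082-4069615 was at 1.23, 0.668 and 0.774 TPM in control EDL and 20.2, 7.62 and 21.5 TPM in D3 EDL (difference -7.02, SE 0.96, edgeR adjusted p = 7.5e-05). In the other direction, chr4:49267770-49267952 was at 0.656, 0.668 and 2.01 TPM in control EDL and 0.482, 0.0866 and 0.632 TPM in D3 EDL (difference 5.68, SE 1.03, edgeR adjusted p = 0.0025). Of the 41 rises, 4 were also called higher in EDL (0.963% of all peaks tested there), among them chr20:4873916-4874041 with log2 fold changes of 2.18 in soleus and 2.14 in EDL. Peak chr10:48927479-48927624 had 2.54 in soleus and 2.25 in EDL, where it was not called (edgeR adjusted p = 0.050). Of the 31 falls, 4 were also called in EDL, where 1.26% of all tested peaks were called in either direction. Of these, chr7:11383065-11383246 was lower in EDL, while chr1:261281619-261281935, chr15:4069082-4069615 and chr16:2142254-2142574 were higher.

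**Figure D4:**
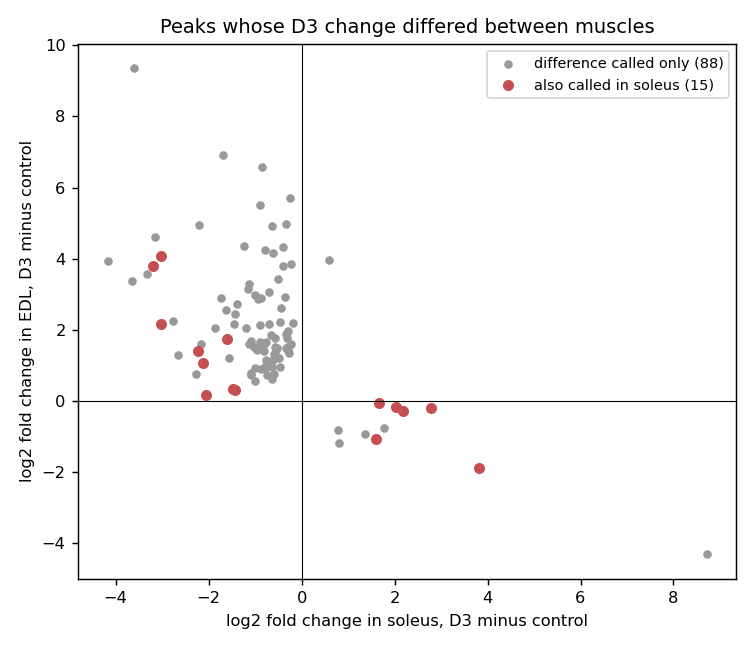
Log2 fold change at D3 in EDL against that in soleus, for the 103 peaks whose changes differed between the muscles and that were tested in each. Red points are the 15 that were also called in soleus. Most points lie in the upper left, with a negative estimate in soleus and a positive one in EDL, signs that follow largely from the choice of peaks.

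The fast myosin region of chromosome 10 was followed by rule. In the RefSeq order the heavy chain genes Myh3, Myh2, Myh1, Myh4 and Myh8 follow each other there, and their near-identical sequences make the assignment of tags uncertain. On the plus strand, peaks formed 3 arrays, the Myh4 window chr10:53778241-53800524 with 35 peaks, a nearer array upstream (chr10:53740362-53764563, 33 peaks) and a farther one (chr10:53711560-53738235, 29 peaks). Of the 14, 25 and 29 of them that were tested, 0 were called at D3 by edgeR (lowest adjusted p = 0.38, and 0 at an unadjusted p under 0.05) and 0 by DESeq2. Of all 9840 tested peaks, 0.732% were called by edgeR, 1413 had an unadjusted p under 0.05 in edgeR and 182 were called by DESeq2. The summed Myh4 window was at 20.6, 26.8 and 6.54 TPM in control and 2.77, 40.2 and 12.1 TPM at D3. In the nearer array the sums were 61.4, 83.4 and 23.0 TPM in control and 3.65, 127 and 40.9 TPM at D3. In the farther array they were 325, 405 and 98.3 TPM in control and 6.91, 288 and 198 TPM at D3.

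The soleus libraries of D3 animals U9 and U10, of the same group and lane, stood at opposite ends. The source of this difference was not tested. A wide spread was also seen on other days: the Myh4 window was at 7.95, 7.72 and 158 TPM at D1 (U24, U25, U26), and the nearer array at 8.47, 21 and 171 TPM at D1 and 168, 23.8 and 18.1 TPM at D7 (U1, U2, U3). It was narrower at D7 in the Myh4 window, at 14.7, 5.19 and 7.80 TPM, and in the farther array, at 81.5, 54 and 40.3 TPM. U10 was above U9 by 14.5-fold in the Myh4 window, 34.7-fold in the nearer and 41.6-fold in the farther array. U10 was the higher in 34 of 35, 33 of 33 and 29 of 29 peaks. Peaks of an array come from the same libraries and are not replicates, so these counts describe a single difference between U9 and U10. In the EDL of U9 and U10 the farther array was at 571 and 621 TPM, close to each other. Over 4914 tested peaks with a mean of at least 10 TPM over the 6 libraries, U9 and U10 soleus differed over 4-fold (after adding 1 TPM) in 32, of which 8 lay in these arrays, which held 8 of the 4914 peaks. Over the same peaks U9 and U11 differed so in 139 (8 in the arrays) and U10 and U11 in 198 (0 in the arrays). In control it was 57 for U7 and U8 (6 in the arrays), 82 for U6 and U7 (0) and 15 for U6 and U8 (0). At D1 it was 59 for U24 and U26 (8), 142 for U24 and U25 (2) and 126 for U25 and U26 (0). At D7 it was 8 for U1 and U2 (0), 21 for U1 and U3 (1) and 59 for U2 and U3 (0). The 5′ most peak of the Myh4 window, chr10:53778241-53778413, had 0, 0 and 1 tags in control and 2, 9 and 1 at D3, too few to compare.

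**Figure D5:**
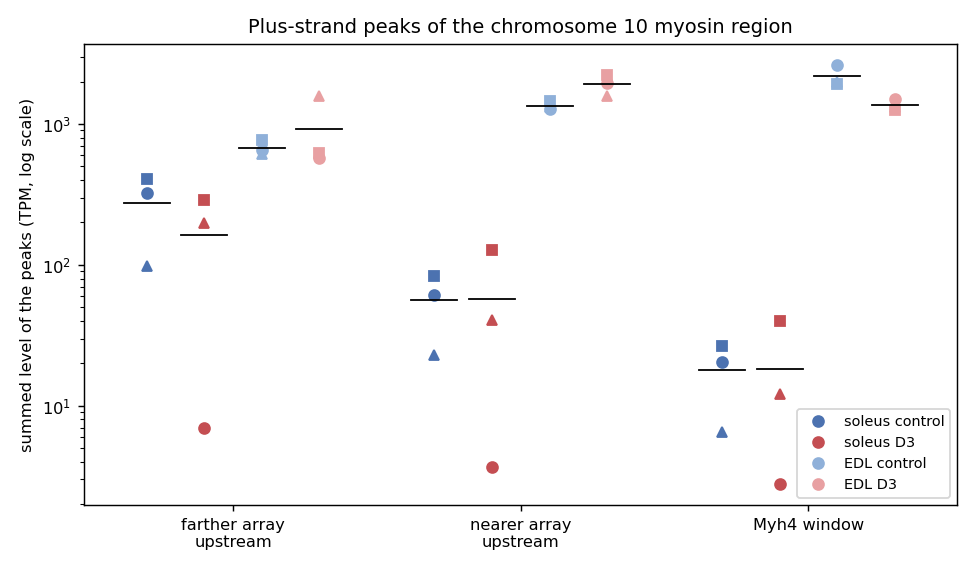
Summed level in TPM (log axis) of the plus-strand peaks of the Myh4 window and of the nearer and farther arrays upstream, in control and D3 soleus and EDL; circles are U6 and U9, squares U7 and U10, triangles U8 and U11, and black lines are means of 3. D3 U9 is the lowest soleus library in all 3 arrays, and EDL is above soleus throughout.

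Rtkn had 1 peak in its window, chr4:114835675-114836032 on the plus strand. It had 12, 8 and 6 tags in control (0.721, 0.691 and 0.769 TPM) and 34, 13 and 5 tags at D3 (1.88, 0.781 and 1.06 TPM). The log2 fold change of 0.58 was not called (edgeR adjusted p = 0.76).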

How the data were processed

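Whole-muscle total RNA was made into nAnT-iCAGE libraries by the authors and sequenced in single-end mode. Per the study's methods, reads were trimmed with Trimmomatic, mapped with STAR to Rnor_6.0 allowing several loci per read and aggregated to CTSS with PromoterPipeline; the submitters' processing notes name Trimmomatic, BWA and HISAT2. The authors deposited raw counts of tags per CTSS and per peak, used here; 42 normalized columns were not used. Every peak reached at least 10 TPM in a library, so weaker starts are missing.

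Counts were tested with edgeR 4.0.16 in R 4.3.3 (filterByExpr, TMM, quasi-likelihood test, Benjamini-Hochberg adjustment), with all 21 soleus libraries in 1 fit, or all 42 for the difference between muscles; the standard error is the log2 fold change over the square root of F. DESeq2 1.42.0 was an alternative. Tests were first tried on simulated data. Mitochondrial peaks were left out of results. Peaks described were the 12 largest rises and falls among called peaks of at least 10 TPM with groups that did not overlap, and the 5 with the highest level; these, the alternatives and the groups were chosen with earlier results of these data known. Cell type markers and gene lists were not analysed here, since no annotation of Rnor_6.0 was used. Both muscles came from the same animals; their deviations from the group means correlated with r of 0.030 to 0.567 over 9236 peaks in the 6 animals. Replicates are separate rats. Total tags per library limit the precision.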

Additional observations from a re-analysis of the deposited data

Results flagged for a closer look

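Of the 26 peaks described by rule, 8 had a change at D3 that differed between soleus and EDL in the fit over both muscles (edgeR, adjusted p under 0.05 and a difference of more than 2.38-fold). Over all tested peaks it was 109 of 9945 (1.1%). The 26 were chosen by their change in soleus, which enters this difference, so the choice favours such calls. The difference, soleus change minus EDL change on the log2 scale, was -7.12 in chr1:261281619-261281935, -7.02 in chr15:4069082-4069615, -5.17 in chr3:105512810-105513096, -3.65 in chrX:106774783-106775086, -3.20 in chrX:39956994-39957524 and -2.26 in chr19:24709806-24710095. It was 2.45 in chr2:242882222-242882418 and 5.68 in chr4:49267770-49267952. In the first 6, control soleus was above control EDL in every library, an order that the choice by this difference favours. Peak chr1:167197491-167197599 passed on the adjusted p (0.031) but not on the size (1.22). With groups of 3 animals, no test for single outlying samples was made.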

How the results depend on the processing

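The 72 calls at D3 against control became 182 with DESeq2, 41 after thinning to the shallowest library, 21 with only the 6 libraries (7 higher and 14 lower), 12 with tag totals as library sizes (11 higher and 1 lower, and a median log2 fold change of 0.17 over all peaks) and 0 with the lane block. Without single libraries they ranged from 7 to 70. All 26 peaks described kept their direction in each alternative run. With the lane block none was called (edgeR adjusted p 0.33 to 0.78). The median standard error over all tested peaks was 0.68 with that block and 0.36 in the same fit without it. D3 against D1 gave 127 calls with DESeq2, 16 with tag totals and 2 to 64 without single libraries, in place of 33. It gave 1 in lane 2 alone, where only D3 U9 and U10 and D1 U25 and U26 were fitted. D3 against D7 gave 24 with DESeq2, 1 with DESeq2 size factors in edgeR, 27 in lane 3 alone (where D3 is U11 only, assumed to vary like the D7 libraries) and 0 to 10 without single libraries, in place of 0. The difference between the muscles gave 182 with DESeq2 and 66 to 125 without single libraries, in place of 109, and 83 with the lane block. With the animal as a replicate block, the pairing gave 158 calls, 97 of them shared with the 109, and the 8 peaks listed above stayed called. Found in each library by itself, the dominant CTSS was the same in 35 of 71 peaks instead of 54, and without single libraries in 49 to 55. The cause of these shifts was not tested. The alternative on gene lists was not run, since no annotation of Rnor_6.0 was used. The shallowest of the 6 libraries, U11, held 4718621 tags; without it 70 peaks were called, 51 higher and 19 lower, and without control U8 7 higher and 0 lower, in place of 41 and 31.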
